A study of Homo sapiens with 9 samples.

Results

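The subunits of the transcription factor AP-1 and related immediate early genes were followed in A549 cells depleted of Cyclin K. The genes were taken by name: FOS, FOSL1, FOSL2, JUN, JUNB, JUND, ATF3, EGR1, IER2 and IER3. These 10 genes are among 31080 reference genes in the deposited tables, and all 10 are among the 21048 genes with enough signal to be tested. A549 is an established human lung cancer cell line. The cells were transfected for 48 h with a scrambled siRNA or with 1 of 2 siRNAs against Cyclin K, named siCyclin K#1 and siCyclin K#2, and total RNA of the whole culture gave 9 libraries, 3 for each siRNA. This single line is the only model. The abundance of each gene is given as FPKM, a fragment count corrected for gene length and library depth, so that levels of different genes can be set side by side per length. Depth, estimated from the FPKM values and exon lengths, was 31333750 to 33767960 reads per library. The p-values below measure the spread between these libraries only.

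AP-1 is not a single protein but a family of dimers. JUN, JUNB and JUND can pair with each other or with FOS, FOSL1 and FOSL2, while FOS family proteins need a JUN partner, and the pair decides how strongly the dimer binds DNA and activates genes. Many of these genes are called immediate early because growth factors and stress switch them on within minutes without new protein synthesis, and their mRNAs are short-lived. FOSL1 is known in lung and other carcinomas as the FOS family member kept high by signalling through RAS and ERK.

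CCNK, which encodes Cyclin K, the partner of the kinases CDK12 and CDK13, checks the labels. Its level was 6.90, 7.06 and 7.10 FPKM in the scrambled libraries, 0.891, 0.816 and 0.720 FPKM with siCyclin K#1, and 0.809, 0.920 and 0.802 FPKM with siCyclin K#2. Every siCyclin K library was below every scrambled one, at 11.5% and 12.0% of the scrambled mean for the 2 siRNAs. The siRNAs did not differ detectably in CCNK (log2 difference -0.06, 95% interval -0.28 to 0.17, adjusted p = 0.726 from limma). Of the A549 markers, KRT8, KRT18, AKR1B10, AKR1C1, ALDH1A1 and ALDH3A1 were at 19.6 FPKM or more in every library and CDH1 at 1.19 to 4.60 FPKM, whereas KRT19 and EPCAM did not exceed 0.279 FPKM. CDKN2A, deleted in this line, did not exceed 0.0350 FPKM. The leukocyte marker PTPRC and the endothelial markers PECAM1, VWF and CDH5 did not exceed 0.0430 FPKM. CD68 was at 30.0 to 39.0 FPKM. Of the fibroblast markers, COL1A2, DCN and PDGFRB did not exceed 0.136 FPKM, while the summed level of all 4, nearly all of it COL1A1, was 1.91 to 2.32 FPKM in scrambled libraries, 13.9 to 14.9 FPKM with siCyclin K#1 and 3.24 to 3.44 FPKM with siCyclin K#2. Its part in the results below was not tested.

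The promoters of JUN, ATF3, JUND and EGR1 hold letters that match known control elements, upstream of a listed start. The RefSeq table of promoters (GRCh38.p14, 250 bases before to 50 after each start) held 8 of the 10 genes in 9 windows, all but FOSL1 and IER3. These stretches are shown because each holds the letters of an element that ATF/JUN dimers or serum response factor can bind. The capitals mark these letters. Any part of them in the changes below was not tested.
JUN promoter, chr1:58784096-58784125, minus strand: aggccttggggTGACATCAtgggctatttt
ATF3 promoter, chr1:212565157-212565333, plus strand: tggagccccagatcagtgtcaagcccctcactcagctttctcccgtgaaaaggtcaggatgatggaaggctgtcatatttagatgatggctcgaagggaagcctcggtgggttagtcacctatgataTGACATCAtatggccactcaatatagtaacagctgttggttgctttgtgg
JUND promoter, chr19:18281755-18281872, minus strand: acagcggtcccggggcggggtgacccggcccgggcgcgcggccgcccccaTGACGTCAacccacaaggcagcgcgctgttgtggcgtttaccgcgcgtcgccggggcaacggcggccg
EGR1 promoter, chr5:138465324-138465465, plus strand: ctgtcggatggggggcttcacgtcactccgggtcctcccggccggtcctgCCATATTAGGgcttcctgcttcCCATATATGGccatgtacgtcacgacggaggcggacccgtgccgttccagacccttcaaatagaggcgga

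Both strands of all 35116 promoter windows in the table were searched for the same letters. TGACATCA began 67 bases before the start of JUN and 123 bases before the upstream of the 2 starts listed for ATF3. Of all windows 2.61% held it. Which ATF3 start these cells use was not examined. TGACGTCA, the full cAMP response element, began 200 bases before the start of JUND, and 1.85% of windows held it. The CArG box, the site of serum response factor, stood 105 and 83 bases before the start of EGR1, and 1.29% of windows held one. TGANTCA, the AP-1 site, was found in 1 of the genes, FOSL2, and in 7.71% of windows. CCAAT was found in JUN, the same ATF3 window, JUNB and JUND (34.6% of windows). TATAAA was found in FOS, JUNB and the other, downstream ATF3 window (11.5% of windows). No matches of different motifs overlapped. A match is a description of letters only, and binding was not measured.

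Most of the genes are short, with few exons. Their median span was 3683 bases, from 1356 bases in IER3 to 55444 bases in ATF3, against 32575 bases for the 11452 other protein-coding genes tested. The longest coding transcript had 1 or 2 exons in 6 of the 10 genes (60% against 8.15%). The letters TATTTAT, the core of AU-rich elements that shorten the life of an mRNA, were in the 3′ UTR of 7 of the 10 genes (70% against 35.0%), with 4 copies in IER3 and 2 each in FOS and FOSL2. Per kilobase of 3′ UTR this was 0.908 copies against 0.326.

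In the scrambled cells the members spanned a wide range of levels. FOSL1 was the highest at 115 ± 12.2 FPKM (SD, n = 3 here and below), followed by IER3 at 65.1 ± 1.64, JUNB at 47.8 ± 1.43 and FOSL2 at 25.5 ± 0.843 FPKM, and none of these neighbours overlapped. IER2 (9.55 ± 4.84 FPKM), JUND (7.70 ± 0.919 FPKM) and JUN (5.84 ± 0.230 FPKM) came next, with IER2 overlapping both others. ATF3 (0.811 ± 0.143 FPKM), EGR1 (0.512 ± 0.0800 FPKM) and FOS (0.505 ± 0.173 FPKM) were the lowest, and EGR1 and FOS overlapped. FOS rested on 34 to 129 reads per library over all groups and EGR1 on 42 to 92 reads, so their values carry the largest counting error.

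**Figure D1:**
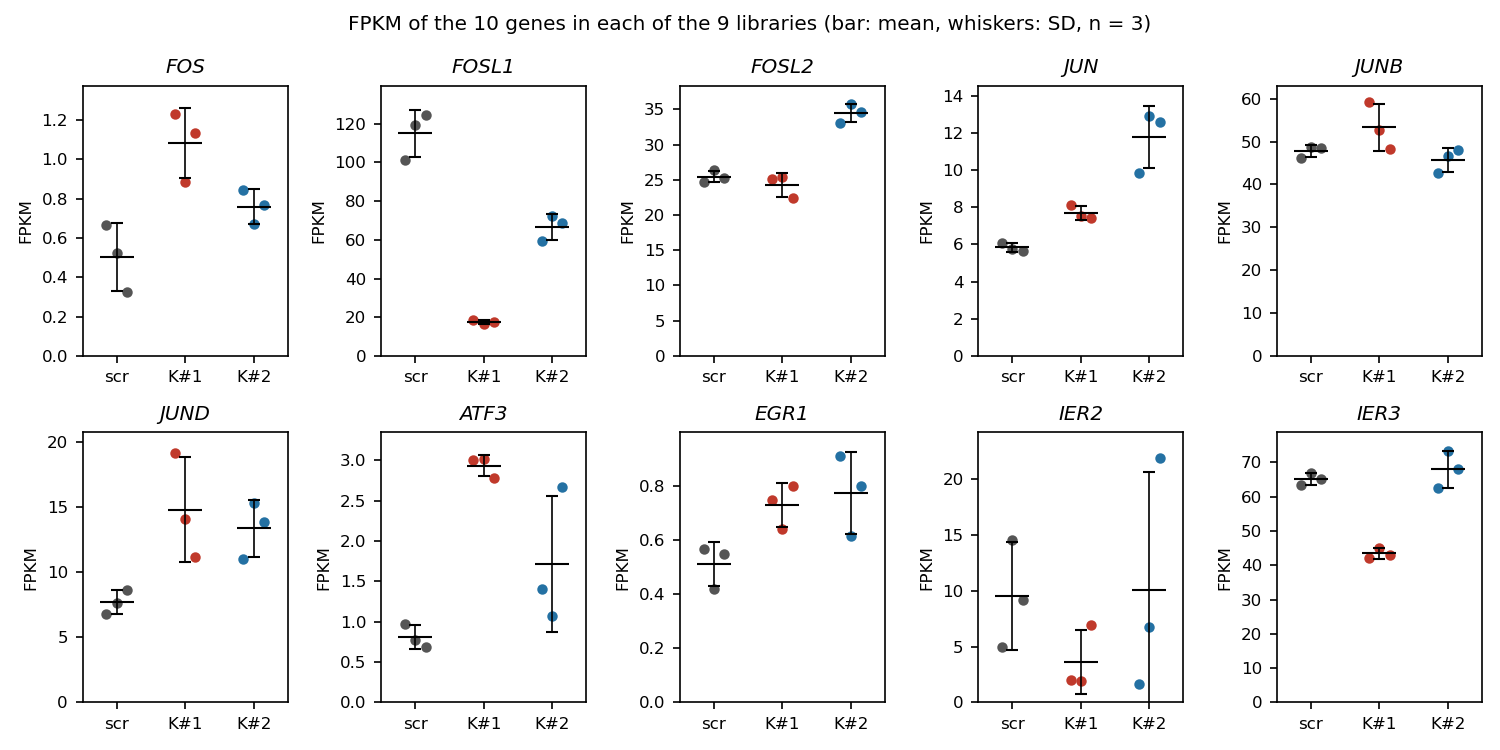
FPKM of each of the 10 genes (vertical axes from 0, each gene on its own scale) in the 3 scrambled (scr), 3 siCyclin K#1 and 3 siCyclin K#2 libraries; points are libraries, the bar is the mean and the whiskers the SD. FOSL1 fell to 17.5 FPKM with siCyclin K#1 and 66.8 FPKM with siCyclin K#2 from 115 FPKM, while the IER2 libraries of every group overlapped.

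To see what Cyclin K depletion changed in this group, all genes were tested with limma on log2(FPKM + 0.1), with adjustment over all 21048 genes. Log2 fold changes are on that scale, which understates the change of low genes. Over both siRNAs, 4 of the 10 genes rose (FOS, JUN, JUND and ATF3) and 1 fell (FOSL1). The background was broad: 28.6% of all tested genes were called in this comparison, 17% higher and 11.5% lower. The median log2 fold change was 0.33 for the 10 genes and 0.06 for all tested genes. In 6 of the 10 genes the 6 siCyclin K libraries did not overlap the 3 scrambled ones, 5 higher and 1 lower, against 32.6% of all tested genes, 18.9% higher and 13.7% lower.

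With siCyclin K#1, 4 of the 10 genes rose (FOS, JUN, JUND and ATF3) and 2 fell (FOSL1 and IER3), against 44.8% of all tested genes called, 26.8% higher and 18.1% lower. With siCyclin K#2, 4 rose (FOSL2, JUN, JUND and ATF3) and FOSL1 fell, against 34.9% called, 19.8% higher and 15.2% lower. With siCyclin K#1 the groups did not overlap in 7 of the 10 genes (5 higher, 2 lower), against 53.5% of all tested genes, 32% higher and 21.5% lower. With siCyclin K#2 they did not overlap in 7 (6 higher, 1 lower), against 46.8%, 25.5% higher and 21.3% lower. The median log2 fold change of the 10 genes was 0.27 with siCyclin K#1, where that of all tested genes was 0.10, and 0.47 with siCyclin K#2, where it was 0.01. The siRNAs share their scrambled controls, and the comparisons are therefore set side by side and not as independent tests. At the stricter rule of the methods, a fold change over 3 with an unadjusted p under 0.01, FOSL1 remained over both siRNAs (2.29% of all genes), FOSL1 and ATF3 with siCyclin K#1 (4.67%), and none with siCyclin K#2 (1.94%). The fold here is that of the log2 means, and the ratio of mean FPKM of FOSL1 over both siRNAs was 0.366, short of a 3-fold change.

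**Figure D2:**
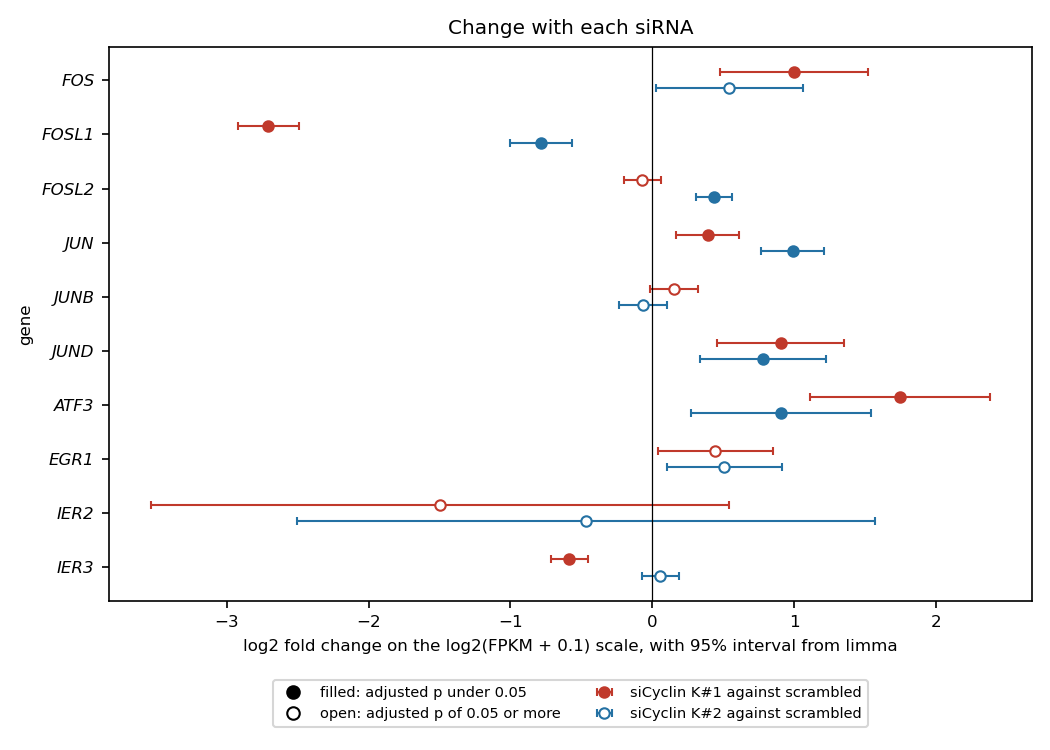
Log2 fold change of each gene against scrambled (horizontal axis, log2(FPKM + 0.1) scale) with siCyclin K#1 (red) and siCyclin K#2 (blue), with the 95% interval from limma; filled points have an adjusted p under 0.05. FOSL1 lies at -2.71 and -0.78, ATF3 at 1.75 and 0.91, and the intervals of IER2 run from -3.54 to 0.54 and from -2.50 to 1.57.

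FOSL1, which encodes FRA-1, had the largest change of the group with siCyclin K#1 and over both siRNAs, while JUN and ATF3 had larger log2 fold changes with siCyclin K#2. Its level was 101, 119 and 125 FPKM in the scrambled libraries, 18.5, 16.5 and 17.4 FPKM with siCyclin K#1, and 59.3, 72.5 and 68.5 FPKM with siCyclin K#2. The 3 groups did not overlap, with siCyclin K#2 between the others. FOSL1 fell to 15.2% of the scrambled mean with siCyclin K#1 (log2 fold change -2.71, SE 0.09, adjusted p = 1.11e-07 from limma) and to 58.0% with siCyclin K#2 (log2 fold change -0.78, SE 0.09, adjusted p = 0.000248). As these are bulk libraries, fewer cells expressing a gene and less of its RNA per cell cannot be told apart. Over both siRNAs the log2 fold change was -1.75 (SE 0.54, adjusted p = 0.0366, exact two-sided permutation p = 0.0238 for 6 against 3 libraries), for a group that holds both levels. That pooled call was lost without any 1 scrambled library (adjusted p = 0.0842, 0.104 and 0.109 without replicates 1, 2 and 3) or any 1 siCyclin K#1 library (0.0623, 0.0580 and 0.0601), while both single-siRNA calls held without each library.

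FOS, the prototype of the family and usually silent outside acute stimulation, was scarce. The scrambled libraries had 0.668, 0.524 and 0.324 FPKM, those with siCyclin K#1 1.23, 0.887 and 1.13 FPKM, and those with siCyclin K#2 0.845, 0.670 and 0.766 FPKM. All siCyclin K libraries were above the scrambled ones, though the lowest with siCyclin K#2 exceeded the highest scrambled library only in the third digit. FOS rose to 215% of scrambled with siCyclin K#1 (log2 fold change 1.00, SE 0.23, adjusted p = 0.00643 from limma). With siCyclin K#2 it was at 151% and did not pass the test (0.54, SE 0.23, adjusted p = 0.101), except without scrambled replicate 1 (0.74, adjusted p = 0.0381). Over both siRNAs its log2 fold change was 0.77 (SE 0.24, adjusted p = 0.0348, exact permutation p = 0.0119, the smallest possible for 6 against 3), and it missed the threshold when scrambled replicate 2 or 3 was left out (adjusted p = 0.0797 and 0.152) or any 1 siCyclin K#1 library (adjusted p = 0.0586, 0.0537 and 0.0622).

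FOSL2, which encodes FRA-2, passed the test with siCyclin K#2. It was at 24.7, 26.4 and 25.3 FPKM in scrambled libraries, 25.1, 25.4 and 22.4 FPKM with siCyclin K#1, and 33.1, 35.7 and 34.6 FPKM with siCyclin K#2. The siCyclin K#1 libraries overlapped the scrambled ones and the siCyclin K#2 libraries lay above all others. FOSL2 rose with siCyclin K#2 (log2 fold change 0.44, SE 0.06, adjusted p = 0.000358 from limma), and for siCyclin K#1 the 95% interval was -0.20 to 0.06. The siRNAs differed directly by -0.51 (SE 0.06, adjusted p = 0.000218).

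The make-up of the FOS family transcripts differed between the groups. FOSL1 made up 81.5 ± 1.5% of the summed FPKM of FOS, FOSB, FOSL1 and FOSL2 in scrambled cells, 40.6 ± 1.98% with siCyclin K#1 and 65.3 ± 1.57% with siCyclin K#2. FOSL2 made up 18.1 ± 1.36%, 56.5 ± 2.48% and 33.8 ± 1.41%, so that it exceeded FOSL1 in siCyclin K#1 cells only. FOS made up 0.367%, 2.52% and 0.752%. The family sum was 141 ± 12.6 FPKM, 43.0 ± 1.99 FPKM and 102 ± 7.96 FPKM in the same order.

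**Figure D3:**
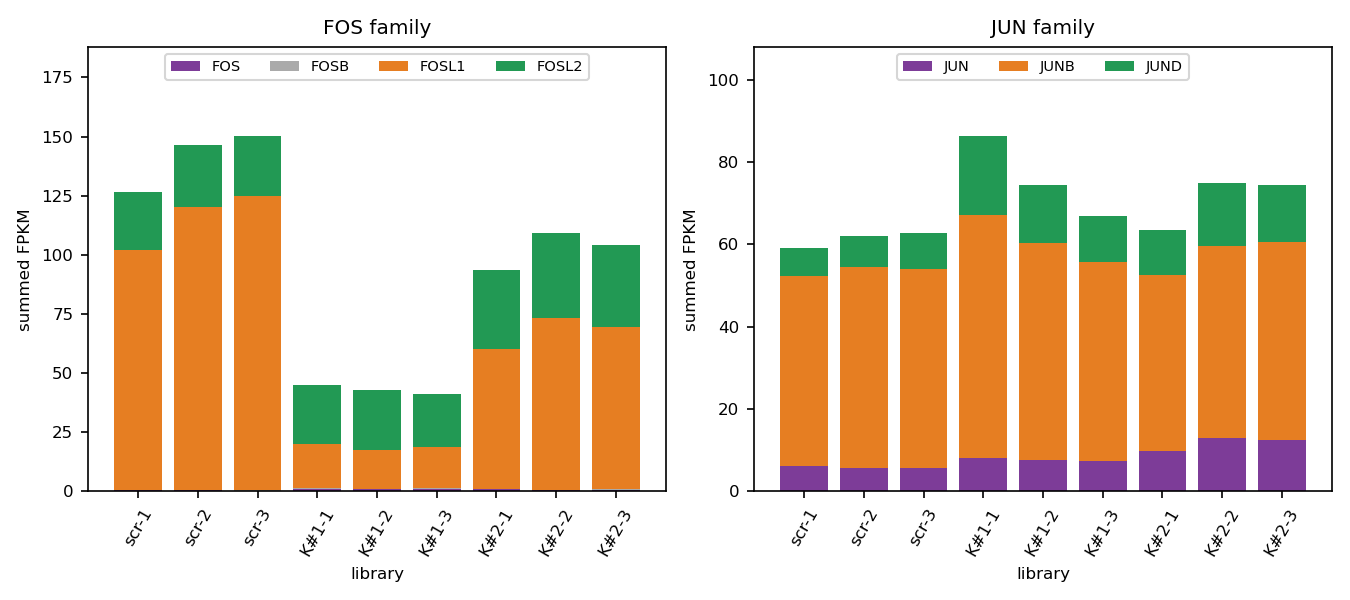
Summed FPKM of the FOS family (left) and the JUN family (right) in each of the 9 libraries, with 1 colour per gene; bars start at 0. The FOS family sum averages 141 FPKM in scrambled libraries and 43.0 FPKM with siCyclin K#1, mostly through FOSL1, whereas the JUN family sum averages 61.3, 75.8 and 70.9 FPKM.

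JUN, the strongest activator among the JUN proteins, rose with both siRNAs. Its level was 6.09, 5.77 and 5.64 FPKM in scrambled libraries, 8.11, 7.54 and 7.41 FPKM with siCyclin K#1, and 9.87, 12.9 and 12.6 FPKM with siCyclin K#2. The 3 groups did not overlap, and here siCyclin K#2 was the highest. The log2 fold change was 0.39 with siCyclin K#1 (SE 0.10, adjusted p = 0.0105 from limma) and 0.99 with siCyclin K#2 (SE 0.10, adjusted p = 7.27e-05), and the siRNAs differed by -0.60 (SE 0.10, adjusted p = 0.00185). Over both siRNAs it was 0.69 (SE 0.19, adjusted p = 0.0220, exact permutation p = 0.0238). That pooled call missed the threshold without scrambled replicate 1, 2 or 3 (adjusted p = 0.0591, 0.0720 and 0.0762).

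JUND, whose protein often restrains growth where JUN promotes it, had 6.82, 7.63 and 8.65 FPKM in scrambled libraries, 19.1, 14.1 and 11.2 FPKM with siCyclin K#1, and 10.99, 15.3 and 13.8 FPKM with siCyclin K#2. All siCyclin K libraries were above all scrambled ones, and those of the 2 siRNAs overlapped. JUND rose by 0.84 on the log2 scale over both siRNAs (SE 0.17, adjusted p = 0.00427 from limma, exact permutation p = 0.0119), by 0.91 with siCyclin K#1 (SE 0.20, adjusted p = 0.00482) and by 0.78 with siCyclin K#2 (SE 0.20, adjusted p = 0.0135). Of the 4 genes called in all 3 comparisons (FOSL1, JUN, JUND and ATF3), only JUND kept every call when each library was left out in turn. The 95% interval of the difference between siRNAs was -0.32 to 0.57.

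JUNB, a JUN protein that can antagonise JUN, gave 46.1, 48.7 and 48.4 FPKM in scrambled libraries, 59.1, 52.7 and 48.2 FPKM with siCyclin K#1, and 42.6, 46.6 and 47.9 FPKM with siCyclin K#2. The libraries of each siRNA overlapped the scrambled ones, while those with siCyclin K#1 lay above those with siCyclin K#2. No comparison of JUNB passed the test, with 95% intervals of -0.01 to 0.32 for siCyclin K#1 and -0.23 to 0.11 for siCyclin K#2. It passed with siCyclin K#1 when replicate 3 of that group was left out (0.23, adjusted p = 0.0290 from limma) and after quantile normalization (0.23, adjusted p = 0.0338). The siRNAs differed by 0.22 (SE 0.07, adjusted p = 0.0565), and by 0.29 without siCyclin K#1 replicate 3 (adjusted p = 0.0169). HOOK2 lies on the opposite strand over the whole of JUNB and read at 0.985 to 1.20 FPKM. Whether the 2 genes share reads was not tested.

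In the JUN family, JUNB made up 77.9% of the summed FPKM in scrambled cells, 70.5% with siCyclin K#1 and 64.6% with siCyclin K#2. JUND made up 12.5%, 19.3% and 18.8%, and JUN 9.54%, 10.2% and 16.6%. The JUN share was thus highest with siCyclin K#2, and the JUND share was above scrambled with both siRNAs.

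ATF3, a stress-induced partner of JUN proteins that represses as a homodimer, had the group's largest rise with siCyclin K#1 and over both siRNAs. With siCyclin K#2 the log2 fold change was larger for JUN (0.99 against 0.91). The ratio of mean FPKM was larger for ATF3 there (2.12 against 2.02). ATF3 was at 0.968, 0.777 and 0.687 FPKM in scrambled libraries, 3.01, 3.02 and 2.79 FPKM with siCyclin K#1, and 1.41, 1.07 and 2.66 FPKM with siCyclin K#2. Every siCyclin K library exceeded every scrambled one, and siCyclin K#2 replicate 3 stood apart from the other two of its group, close to the siCyclin K#1 level. ATF3 rose to 362% of scrambled with siCyclin K#1 (log2 fold change 1.75, SE 0.28, adjusted p = 0.000859 from limma) and to 212% with siCyclin K#2 (0.91, SE 0.28, adjusted p = 0.0329). Over both siRNAs the log2 fold change was 1.33 (SE 0.33, adjusted p = 0.0134, exact permutation p = 0.0119), and it missed the threshold without scrambled replicate 2 or 3 (adjusted p = 0.0506 and 0.0594).

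The siCyclin K#2 change in ATF3 depended on single libraries. Without siCyclin K#2 replicate 3 it was 0.56 (adjusted p = 0.0365 from limma), and it missed the threshold without scrambled replicate 2 (0.89, adjusted p = 0.0818), scrambled replicate 3 (0.81, adjusted p = 0.0977) or siCyclin K#2 replicate 1 (1.00, adjusted p = 0.0523). The siRNAs differed by 0.84 (SE 0.28, adjusted p = 0.0525), just short of the threshold, and by 1.19 without siCyclin K#2 replicate 3 (adjusted p = 0.00175).

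EGR1, a zinc finger factor that serum response factor switches on, gave 0.566, 0.420 and 0.550 FPKM in scrambled libraries, 0.748, 0.641 and 0.803 FPKM with siCyclin K#1, and 0.912, 0.614 and 0.800 FPKM with siCyclin K#2. All siCyclin K libraries were above all scrambled ones (exact two-sided permutation p = 0.0119), yet the fit across all genes did not call it over both siRNAs (log2 fold change 0.48, SE 0.17, adjusted p = 0.0563 from limma), with siCyclin K#1 (0.44, SE 0.18, adjusted p = 0.0736) or with siCyclin K#2 (0.51, SE 0.18, adjusted p = 0.0548). It passed over both siRNAs and with siCyclin K#2 when siCyclin K#2 replicate 2 was left out (0.53, adjusted p = 0.0429, and 0.65, adjusted p = 0.0265).

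IER3, an inhibitor of apoptosis induced by growth factors and NF-κB, separated the siRNAs. It was at 63.5, 66.7 and 65.1 FPKM in scrambled libraries, 42.1, 45.1 and 43.0 FPKM with siCyclin K#1, and 62.4, 73.3 and 68.1 FPKM with siCyclin K#2. The siCyclin K#1 libraries lay below all others, and those with siCyclin K#2 overlapped the scrambled ones. IER3 fell with siCyclin K#1 to 66.7% of scrambled (log2 fold change -0.58, SE 0.06, adjusted p = 4.15e-05 from limma), while the 95% interval for siCyclin K#2 was -0.07 to 0.19. IER3-AS1 overlaps IER3 by 394 bases on the other strand and read at 0.171 to 0.644 FPKM.

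IER2, a nuclear protein of the immediate early response, was the least steady of the group. The libraries had 4.93, 14.6 and 9.15 FPKM in scrambled cells, 2.05, 1.89 and 6.96 FPKM with siCyclin K#1, and 1.62, 6.72 and 21.9 FPKM with siCyclin K#2. All groups overlapped, and the highest and lowest libraries, 13.5-fold apart, were both of siCyclin K#2. These were an estimated 160 to 2145 reads, and the cause of the spread was not tested. No comparison of IER2 passed the test, with 95% intervals of -3.54 to 0.54 for siCyclin K#1 and -2.50 to 1.57 for siCyclin K#2 on the log2 scale, and the direction with siCyclin K#2 turned when its replicate 1 was left out (0.48, adjusted p = 0.681 from limma). An antisense gene, AC011446.2, overlaps IER2 by 1123 bases and read at 0.0955 to 0.880 FPKM.

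The spread between replicates differed widely across the group. The SD within groups, on the log2 scale, was 1.296 for IER2, higher than that of 99.8% of the 11243 genes with a mean of at least 1 FPKM, whose median SD was 0.103. It was 0.391 for ATF3, 0.295 for FOS, 0.280 for JUND and 0.204 for EGR1. FOSL1 and JUN were at 0.134 and 0.132, and JUNB, IER3 and FOSL2 at or under the median, at 0.102, 0.0758 and 0.0724.

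Compared directly, siCyclin K#1 and siCyclin K#2 differed in 4 of the 10 genes, all lower with siCyclin K#1: FOSL1, FOSL2, JUN and IER3. Of all tested genes 29.4% differed between the siRNAs, 17.1% higher and 12.3% lower with siCyclin K#1. The difference was -1.93 for FOSL1 (SE 0.09, adjusted p = 2.39e-06 from limma) and -0.64 for IER3 (SE 0.06, adjusted p = 5.98e-05). FOSL1 was also the only member past the stricter rule of the methods, which 1.53% of all genes passed. The libraries of the siRNAs did not overlap in 7 of the 10 genes, 3 higher and 4 lower with siCyclin K#1, against 42.7% of all tested genes, 25.4% higher and 17.3% lower. The median log2 difference was -0.29 for the 10 genes and 0.08 for all tested genes.

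The genes whose pattern over the 9 libraries was closest to the extreme members were found by Euclidean distance on the log2 scale, centred on the scrambled mean, among 11243 genes. Nearest to FOSL1 were PPIF at a distance of 0.337, the non-coding RNA LINC01468 at 0.381, and a feature that joins RNU6-230P and SLC12A8 at 0.468. PPIF, the mitochondrial cyclophilin, averaged 135 FPKM in scrambled cells, 20.6 FPKM with siCyclin K#1 and 77.5 FPKM with siCyclin K#2. Nearest to ATF3 were ANKRD13B at 0.763, STAT4 at 0.808 and ID3 at 0.910. ID3, an inhibitor of basic helix-loop-helix factors, averaged 16.7, 58.1 and 34.7 FPKM.

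Other bZIP proteins, not all of them established partners of AP-1 subunits, were counted beside the members. Of 19 tested, 7 rose and 2 fell over both siRNAs, 7 rose and 3 fell with siCyclin K#1, and 8 rose and 3 fell with siCyclin K#2. Of all tested genes 28.6%, 44.8% and 34.9% were called in the same order. The median log2 fold change over both siRNAs was 0.38, and 0.06 for all tested genes. JDP2, a repressor of AP-1, rose from 0.681 ± 0.108 FPKM to 2.26 ± 0.348 FPKM with siCyclin K#1 (log2 fold change 1.60, SE 0.14, adjusted p = 2.66e-05 from limma) and to 1.39 ± 0.0740 FPKM with siCyclin K#2 (0.94, SE 0.14, adjusted p = 0.00102). ATF1, a relative of CREB, rose from 4.94 ± 0.399 FPKM to 15.5 ± 0.557 FPKM and 11.7 ± 0.718 FPKM (1.63 and 1.23). DDIT3, which encodes CHOP, rose from 2.29 FPKM to 4.13 and 5.07 FPKM, and NRL from 0.825 FPKM to 2.31 and 1.88 FPKM, but each sits in a feature that joins other genes. The 2 that fell were ATF4, the effector of the integrated stress response (log2 fold change -0.57 over both siRNAs, adjusted p = 0.00507 from limma), and MAFG (-0.37, adjusted p = 0.00874).

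Other immediate early genes moved in both directions too. Of 36 tested, 12 rose and 5 fell over both siRNAs, 19 rose and 8 fell with siCyclin K#1, and 13 rose and 5 fell with siCyclin K#2. The shares of all tested genes called were 28.6%, 44.8% and 34.9% in the same order. The median log2 fold change of the list was 0.40 over both siRNAs. BTG2, an antiproliferative target of p53, rose from 2.41 ± 0.211 FPKM to 25.2 ± 1.07 FPKM with siCyclin K#1 (log2 fold change 3.33, SE 0.08, adjusted p = 1.75e-08 from limma) and to 6.06 ± 0.399 FPKM with siCyclin K#2 (1.296, SE 0.08, adjusted p = 3.55e-06). PTGS2, the inducible cyclooxygenase, rose from 0.992 FPKM to 4.05 and 3.44 FPKM. RHOB, a stress-induced small GTPase, rose from 37.9 FPKM to 87.3 and 98.1 FPKM, and NFKBIZ, an atypical IκB protein, from 1.31 FPKM to 5.35 and 2.67 FPKM. The 5 that fell over both siRNAs were NFKBIA, MCL1, SGK1, GADD45A and IER5. NFKBIA went from 25.3 FPKM to 14.3 and 12.0 FPKM, and MCL1 from 38.0 FPKM to 24.5 and 17.3 FPKM.

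Among kinases, phosphatases and factors upstream of AP-1, 11 of 34 tested rose and 5 fell over both siRNAs, 16 rose and 11 fell with siCyclin K#1, and 11 rose and 7 fell with siCyclin K#2. Among all tested genes the called shares were 28.6%, 44.8% and 34.9%. The median log2 fold change over both siRNAs was 0.15. ELK3, a ternary complex factor that works with serum response factor, fell from 24.7 ± 6.07 FPKM to 7.47 ± 0.590 FPKM with siCyclin K#1 (log2 fold change -1.68, SE 0.24, adjusted p = 0.000409 from limma) and 3.81 ± 1.23 FPKM with siCyclin K#2 (-2.68, SE 0.24, adjusted p = 3.89e-05). MKL1, a coactivator of serum response factor, rose from 5.32 FPKM to 16.5 and 11.4 FPKM, and RPS6KA4, which encodes the kinase MSK2, from 7.08 FPKM to 13.6 and 16.9 FPKM. DUSP6, the ERK phosphatase that is itself induced by ERK signalling, fell from 4.67 FPKM to 2.11 and 2.25 FPKM.

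Of 31 genes tested that are known from other work as AP-1 targets, 5 rose and 8 fell over both siRNAs, 10 rose and 14 fell with siCyclin K#1, and 11 rose and 15 fell with siCyclin K#2. For all tested genes the called shares were 28.6%, 44.8% and 34.9%. The median log2 fold change over both siRNAs was -0.08. IL11, a cytokine of the IL-6 family, fell from 53.1 FPKM to 3.08 FPKM with siCyclin K#1 and 13.1 FPKM with siCyclin K#2 (log2 fold change -4.07 and -2.02, SE 0.10 for each). CCND1, which encodes Cyclin D1, fell from 72.5 ± 0.546 FPKM to 16.7 ± 0.329 FPKM (-2.11, SE 0.03, adjusted p = 5.32e-09 from limma) and 20.7 ± 0.685 FPKM (-1.81, SE 0.03, adjusted p = 2.12e-08). HMOX1, the haem-degrading oxidative stress enzyme, rose from 14.3 FPKM to 68.3 and 24.4 FPKM, and AREG, an EGFR ligand, from 4.10 FPKM to 11.7 and 12.9 FPKM. The list holds genes with many other regulators, and whether any of these changes passes through AP-1 was not tested.

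Heat shock genes, which also respond to stress, gave 4 higher and 1 lower of 10 tested over both siRNAs, 4 higher and 4 lower with siCyclin K#1, and 5 higher and 1 lower with siCyclin K#2. The called shares of all tested genes were 28.6%, 44.8% and 34.9%. The median log2 fold change of the heat shock genes over both siRNAs was 0.13. The chaperonin HSPD1 rose from 93.2 FPKM to 134 and 153 FPKM, the co-chaperone DNAJB1 from 28.5 FPKM to 38.2 and 51.0 FPKM, and the small heat shock protein HSPB1 from 43.6 FPKM to 62.1 and 52.9 FPKM. HSPE1, the partner of HSPD1, was lower, from 39.7 FPKM to 23.0 and 31.0 FPKM, in a feature that joins other genes. The spread of log2 fold changes in each list is shown in the plot of changes by gene list.

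**Figure D4:**
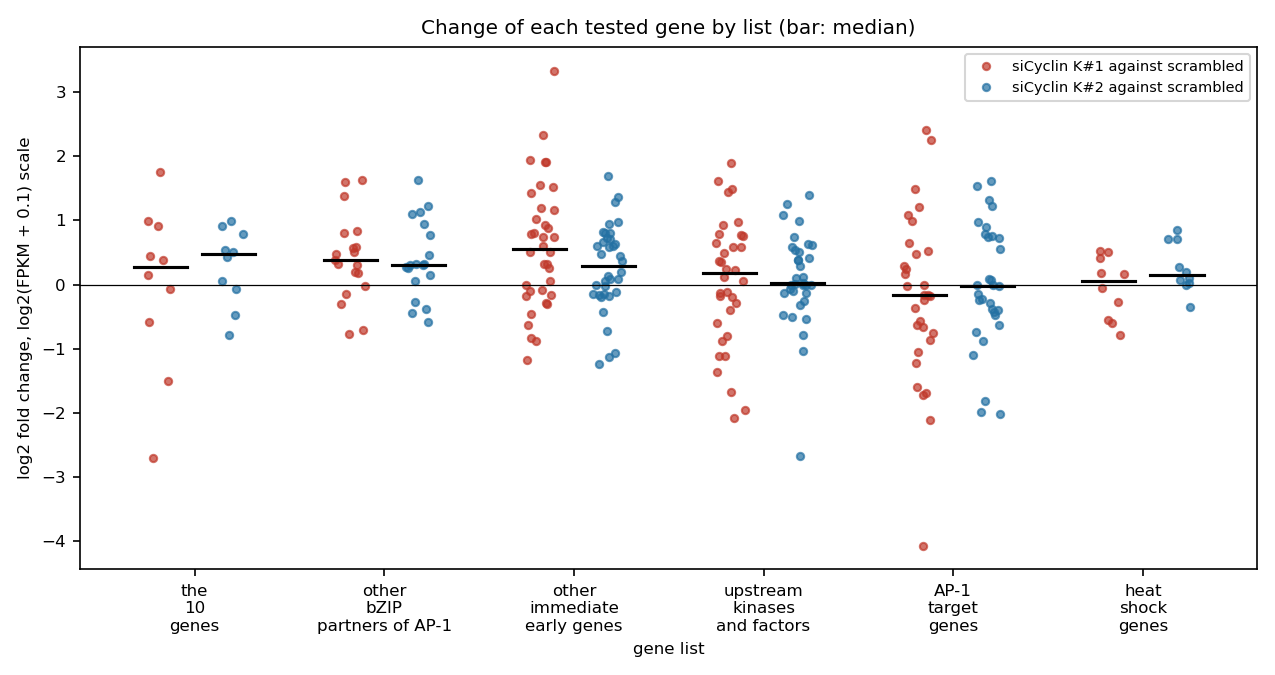
Log2 fold change against scrambled (vertical axis, log2(FPKM + 0.1) scale) of each tested gene in the 10 members and 5 lists, with siCyclin K#1 (red) and siCyclin K#2 (blue); points are genes and bars are medians. The medians of the 10 members are 0.27 and 0.47, and every list has genes on both sides of 0.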

How the data were processed

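The authors sequenced RNA of 9 A549 libraries and deposited a table of FPKM values per library, which StringTie 1.3.3b produced per the labels. The aligner, its filters and the strand setting are not given in the sources used here. The files list 56252 features with GRCh38 coordinates, of which 25125 have no reference gene (not used here) and 1344 join more than 1 gene. Rows of 1 gene were summed, which concerned 47 genes. With the exon lengths of GENCODE 29, low values resolved into whole reads (83.6% to 84.4% of values above 0 within 0.02 reads, every value of the 10 genes), which gave an estimate of the depth of each library. Groups came from the sample labels.

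A gene was tested where 3 or more libraries reached 0.1 FPKM. The test was limma 3.58.1 under R 4.3.3, run on log2(FPKM + 0.1) with lmFit and a trended eBayes, followed by Benjamini-Hochberg adjustment, and an adjusted p under 0.05 made a call. Both siRNAs together were fitted as 2 groups, and each siRNA within a fit of 3 groups. Each of the 10 genes also had an exact permutation test, two-sided, in scipy 1.17.1. With 3 libraries against 3 it cannot go below 0.1. On simulated data for the comparison of both siRNAs over 21048 genes, limma found 191 of 200 changed genes and called 14 unchanged ones. Far fewer genes were changed there than were called in the data, and both siRNAs were given the same change. Only genes with a higher scrambled level than FOS, EGR1 and ATF3 were changed. The simulation therefore does not show how the pooled test works for those genes or where the siRNAs differ. The 10 genes, the gene lists and the tests were chosen with earlier results of these data known. From each list at most 4 genes were named, namely the called ones of 1 FPKM or more on average that changed most over both siRNAs. ATF4 and MAFG were added because only 2 of their list fell, and so were the 5 other immediate early genes that fell. Alternatives were other pseudocounts, filters and scalings, no trend, a replicate block, other groupings, the highest row of a gene, the threshold of the methods, leaving out each library, and limma-voom on recovered reads, added after the data were seen. Overlapping and joined genes cannot be separated in the deposited FPKM. Promoters were read from RefSeq, and gene structure from GENCODE 29. The JUN stretch lies within the first exon of JUN in GENCODE 29, upstream of the RefSeq start. The markers KRT7 and CD3E were looked up by symbol, but no reference gene carried either, so they have no values here.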

Additional observations from a re-analysis of the deposited data

Results flagged for a closer look

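Among the 6 siCyclin K libraries, IER2 in siCyclin K#2 replicate 3 was at 21.91 FPKM, far from the other 5, which lay between 1.62 and 6.96 FPKM. The flag was set on FPKM, not on the log2 scale, and over libraries of both siRNAs together. Its nominal chance rate of about 1 in 20 is for a single uniform group and may not hold here. In 4 genes the response differed between the siRNAs when siCyclin K#1 was tested directly against siCyclin K#2 with limma: the log2 difference was -1.925 for FOSL1, -0.5053 for FOSL2, -0.6009 for JUN and -0.6421 for IER3. FOSL1 fell with both siRNAs and JUN rose with both, to different levels. For FOSL2 and IER3, 1 of the siRNAs passed the test against scrambled and the other did not.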

How the results depend on the processing

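Of the values for single genes under the alternatives, 736 kept their direction and their side of the threshold, 21 passed it only under the alternative, 28 no longer passed it and 7 changed sign. The number of the 10 genes called over both siRNAs, 5 in the report, was 3 without a filter on low values, 2 with the replicate block, 8 with all 3 groups in 1 fit and 1 by the rule of the methods, and ran from 1 to 6 when single libraries were left out. All genes called in that comparison were 9076 with 3 groups in 1 fit and 483 by the rule of the methods. By that rule 2 of the 10 genes and 983 genes in all were called with siCyclin K#1, 0 and 409 with siCyclin K#2, and 1 and 322 between the siRNAs. Leaving out single libraries gave 6 to 7 of the 10 genes with siCyclin K#1, 4 to 6 with siCyclin K#2 and 4 to 5 between the siRNAs. Same-numbered libraries showed no shared shift, as their deviations correlated at -0.0711 to 0.0379 over 11243 genes. Whether they were transfected or prepared together is not known from the labels. With the block, FOS, FOSL1 and JUN missed the threshold over both siRNAs (adjusted p = 0.0528, 0.0788 and 0.0553 from limma), as did ATF3 with siCyclin K#2 (0.0554), and EGR1 passed with each siRNA (0.0358 and 0.0276). ATF3 with siCyclin K#2 also missed it without the trend (0.0502) and with 2 groups in the fit (0.0789). FOS and FOSL1 over both siRNAs missed it without a filter on low values (0.0608 and 0.0549), and FOSL1 also without the trend (0.0549). The difference between the siRNAs passed with genes of a mean of at least 1 FPKM and with limma-voom for JUNB (0.0401 and 0.0421) and ATF3 (0.0369 and 0.0210), after quantile normalization for JUNB (0.0166) and with a pseudocount of 1 for ATF3 (0.0423). EGR1 over both siRNAs passed without the trend (0.0351, and 0.0443 with siCyclin K#2), with 3 groups in 1 fit (0.0339, as did FOSL2 at 0.0143 and IER3 at 0.00236) and with limma-voom on recovered reads (0.0473) (which was added once the data had been seen). The changes of sign were all in differences that passed no test: JUNB over both siRNAs was -0.00542 with median-ratio scaling, and with single libraries left out JUNB over both siRNAs ran from -0.00704 to 0.0872, JUND between the siRNAs from -0.0757 to 0.308, EGR1 between the siRNAs from -0.205 to 0.0460, and IER2 with siCyclin K#2 from -1.36 to 0.477. Quantile normalization moved the median log2 fold change of all tested genes with siCyclin K#1 from 0.10 to -0.02. The causes were not tested. Depth limits FOS and EGR1, which rest on few reads, and 3 libraries a group limit every p-value.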
